A study of Mus musculus with 37 samples.

Results

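Liver RNA was compared between mice labelled as carrying the TDP-43 Q331K knock-in together with loss of TMEM106B and mice labelled as carrying the knock-in alone. The members were chosen by genotype label: 4 libraries labelled TMEM106B-/-TDP-43Q331K, called the combined genotype here, and 4 labelled TDP-43Q331K, which makes 8 of the 37 libraries of the series. Both groups therefore share the Q331K change in the endogenous Tardbp gene, and what separates them by label is Tmem106b. All mice were 10 months old, and total RNA of whole liver was sequenced. The series also holds 4 WT and 4 TMEM106B-/- livers and 21 cortex libraries, which appear below only beside results of the 8 livers. Its title names lipid metabolism and obesity in the knock-in model, and its design asks which genes change in brain and liver. Nothing in the labels states that each library was made from a different animal, so p-values here measure only the spread between these samples, and they give no sex, no diet and no time of day.

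TMEM106B is a membrane protein of late endosomes and lysosomes that binds subunits of the V-ATPase, the pump that acidifies the lysosome, and variants at its gene modify the risk of frontotemporal dementia. TDP-43 is a nuclear RNA-binding protein that forms aggregates in amyotrophic lateral sclerosis and frontotemporal dementia, and Q331K is a disease-linked change in its C-terminal domain. The liver takes up, makes, stores and exports fat. It is also one of the most sexually dimorphic tissues of the mouse: pulsatile growth hormone acting through the receptor Ghr and the factor Stat5b keeps male-biased genes on and female-biased genes off in males.

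The labels were checked first. Tmem106b (GRCm38, chromosome 6, 13069759 to 13089269, plus strand) had 113, 102, 63.6 and 89.3 counts per 1000000 counts of the library (CPM) in TDP-43Q331K replicates 1 to 4 and 122, 139, 143 and 136 CPM in replicates 1 to 4 of the combined genotype. Its RNA was thus not lower in the libraries labelled as lacking the protein. The groups did not overlap, and the log2 fold change was 0.56 ± 0.15 (SE, n = 4 against 4; edgeR adjusted p = 0.0497), a call that was lost without any 1 of TDP-43Q331K replicates 2, 3 or 4 or of the 4 combined genotype livers, with adjusted p reaching 0.126 over all alternatives. A gene-level count does not show which part of the gene was changed, so the genotype rests on the label alone, and group names below stand for the libraries so labelled. Tardbp, which carries Q331K in both groups, ranged from 99.4 to 115 CPM in TDP-43Q331K and from 100.4 to 119.9 CPM in the combined genotype (log2 0.04 ± 0.11, edgeR adjusted p = 0.872). The tissue label was borne out by 12 hepatocyte markers, whose summed level was 106602 to 136838 CPM in TDP-43Q331K and 106449 to 136270 CPM in the combined genotype. Xist, the RNA of the inactive X chromosome in females, was at most 0.389 CPM in the 16 livers, and the Y-linked Ddx3y was at least 46.0 CPM in each.

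Depth was 51344198 to 68195242 counts in TDP-43Q331K and 58180111 to 65117438 counts in the combined genotype. In a principal component analysis of the 8 livers, the first component (39.6% of the variance) placed the TDP-43Q331K libraries at -47.8 to -25.6 and the combined genotype at 14.03 to 49.5. Replicate 1 of the combined genotype stood apart in its acute phase genes, the plasma proteins hepatocytes make in inflammation: their 28 genes summed to 46259 CPM there, against 19860 to 19994 CPM in replicates 2 to 4 and 20526 to 24749 CPM in TDP-43Q331K. The counts of the main gene lists are therefore also given, where they changed, from a fit without it and without 2 livers of the other genotypes that stood apart in the same way, an alternative chosen after seeing the data.

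Of 16710 genes tested, edgeR called 658 at an adjusted p under 0.05 (3.94%): 362 were higher in the combined genotype (2.17%) and 296 lower (1.77%). The 658 included 574 protein-coding genes. By size, 181 rose and 151 fell at least 2-fold, and 81 rose and 60 fell at least 4-fold. Across all genes the median log2 fold change was -0.0051, and in 2502 genes (15%) the values of the 2 groups did not overlap. Among the 658 called genes 626 did not overlap, 343 higher and 283 lower. Groups described below as apart or separate therefore add little to a call. Without the high acute phase livers 748 of 16842 genes (4.44%) were called, 421 higher (2.5%) and 327 lower (1.94%). The calls rested on few libraries: 211 genes were called in each of the 8 fits that left 1 liver out, and the total fell to 248 without replicate 2 of the combined genotype, 291 without TDP-43Q331K replicate 4, 380 without TDP-43Q331K replicate 3, and 408 and 388 when replicate 1 or replicate 3 of the combined genotype was dropped. The plot of fold change against p places Hsd3b5 and Gm3839 at the top left and Slc22a27 and Tceal8 at the top right.

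**Figure D1:**
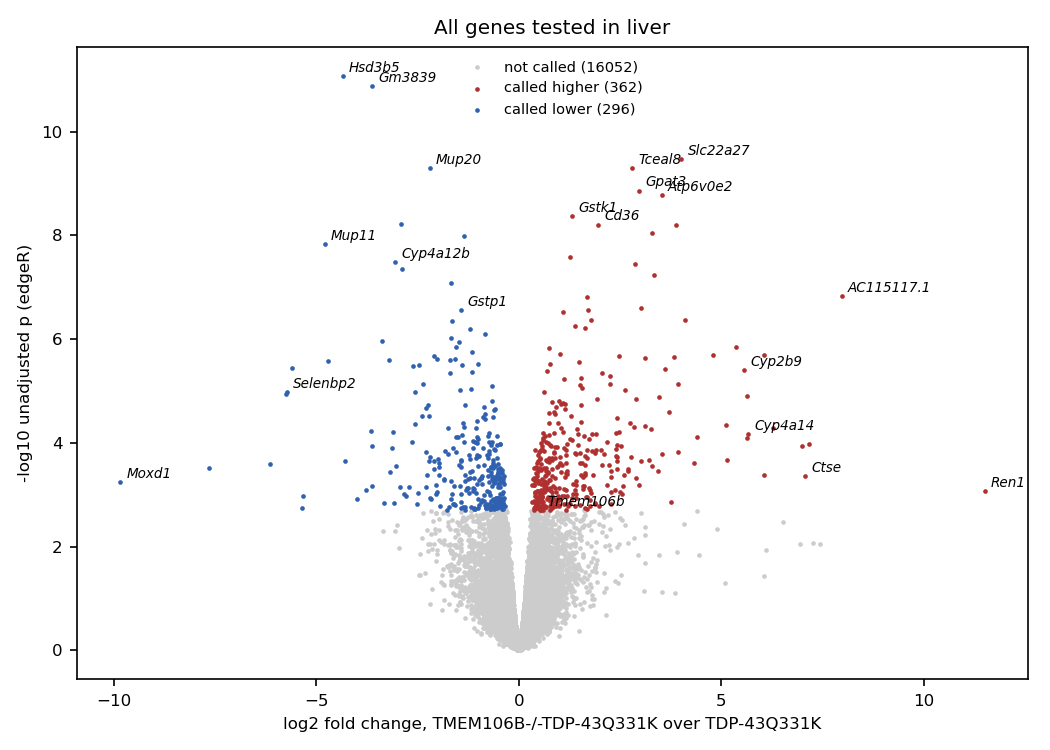
Each point is 1 of the 16710 genes tested in liver, with its log2 fold change (combined genotype over TDP-43Q331K) on the horizontal axis and -log10 of its unadjusted edgeR p on the vertical axis. Red marks the 362 called higher and blue the 296 called lower; Hsd3b5 and Gm3839 have the smallest p among the lower genes and Slc22a27 and Tceal8 among the higher.

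Male-biased liver genes fell as a group. Of 25 listed genes that hepatocytes of male mice express more strongly, all 25 were tested, 16 were called lower and 0 higher, and the median log2 fold change was -1.57. Again 16 were called lower without the high acute phase livers, with C8a in place of Mup1. Hsd3b5, a steroid-reducing enzyme made almost solely in male liver, averaged 165 ± 32.1 CPM (SD, n = 4) in TDP-43Q331K and 8.10 ± 2.67 CPM in the combined genotype. Serpina1e, a male-biased member of the alpha-1 antitrypsin family of protease inhibitors (chromosome 12, 103946931 to 103958975, minus strand), had 4703, 6088, 4313 and 8225 CPM in TDP-43Q331K and 163, 123, 134 and 470.0 CPM in the combined genotype. That is a 26.2-fold difference (log2 -4.71 ± 0.62, edgeR adjusted p = 0.000845), and the groups were far apart. The constitutive family member Serpina1a fell less: 2167, 2107, 1936 and 2116 CPM against 1202, 1259.5, 990.0 and 1578 CPM (log2 -0.73 ± 0.14, adjusted p = 0.00984). Of its 50-base stretches 57.6% occur in relatives, Serpina1e among them, so whether Serpina1a itself fell cannot be told apart from reads of Serpina1e assigned to it.

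Selenbp2, a selenium-binding protein, had 276, 676, 748 and 1434 CPM in TDP-43Q331K and 12.9, 8.12, 11.5 and 27.2 CPM in the combined genotype, a 52.6-fold difference (log2 -5.72 ± 0.84, edgeR adjusted p = 0.0022). Ugt2b38, which conjugates glucuronic acid to small molecules, went from 28.4, 39.4, 61.0 and 53.8 CPM to 0.667, 0.482, 1.09 and 1.54 CPM (log2 -5.60 ± 0.75, adjusted p = 0.00103). Cyp4a12b, a fatty acid omega-hydroxylase of male mice, went from 80.5, 69.6, 57.3 and 69.0 CPM to 3.66, 5.81, 12.4 and 11.5 CPM (log2 -3.05 ± 0.30, adjusted p = 3.44e-05). In each of these 3 genes every liver of the combined genotype lay well below every TDP-43Q331K liver. Moxd1, a copper-dependent monooxygenase, was at 19.8, 24.1, 15.2 and 34.5 CPM in TDP-43Q331K and nearly absent from the combined genotype, with 0, 0, 4 and 2 counts. Its adjusted p was 0.0245 and reached 0.0946 over the alternatives. The call was lost without TDP-43Q331K replicate 4 or any 1 of the combined genotype livers. Moxd1 was also low in WT livers (7.45, 0.759, 0.0140 and 0.0564 CPM) and TMEM106B-/- livers (0.0421, 0.0488, 1.85 and 6.51 CPM), all below every TDP-43Q331K liver.

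Other male-biased genes fell less steeply. Cyp7b1, an oxysterol 7-alpha-hydroxylase of bile acid and steroid metabolism, had 242, 289.7, 275 and 322 CPM against 83.7, 72.7, 102 and 101 CPM (log2 -1.65 ± 0.21, adjusted p = 0.00026). C6, a component of the terminal complement complex, averaged 304 ± 51.8 CPM against 95.3 ± 19.5 CPM (log2 -1.67 ± 0.22, adjusted p = 0.000471). Susd4, which restrains complement activation, averaged 49.4 ± 3.78 CPM against 15.4 ± 5.54 CPM (log2 -1.68 ± 0.19, adjusted p = 7.08e-05). In these 3 genes every liver of the combined genotype lay below every TDP-43Q331K liver. Gstp1, the pi-class glutathione transferase, averaged 1957 ± 400.5 CPM against 729.7 ± 123 CPM (log2 -1.42 ± 0.17, adjusted p = 0.000183). Cyp2d9, a steroid hydroxylase, averaged 1686 ± 115 CPM against 818 ± 298 CPM (log2 -1.04 ± 0.20, adjusted p = 0.00868). Slco1a1, an organic anion uptake carrier, averaged 268 ± 67.1 CPM against 125 ± 48.2 CPM, with overlapping groups, and its call (log2 -1.09 ± 0.26, adjusted p = 0.0292) was lost without TDP-43Q331K replicates 1, 2 or 4 or replicate 3 of the combined genotype (adjusted p up to 0.083 over the alternatives).

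The major urinary proteins, pheromone carriers that male liver secretes in bulk, followed the same direction. The male-biased and Mup lists share genes, the called Mup1, Mup7, Mup20 and Mup21 among them, so their counts are not separate results. Of 22 Mup genes 18 passed the filter on low counts, 11 were called lower and 0 higher, and the median log2 fold change was -2.20. Mup11 had 178, 216, 351 and 342 CPM in TDP-43Q331K and 8.84, 4.55, 7.05 and 18.8 CPM in the combined genotype (log2 -4.79 ± 0.43, adjusted p = 1.75e-05). Mup14 went from 98.9, 108, 108 and 111 CPM to 13.6, 10.6, 8.61 and 25.3 CPM (log2 -2.88 ± 0.29, adjusted p = 4.08e-05). Mup7 went from 2131, 1832, 1966 and 1761 CPM to 415, 129, 254 and 469 CPM (log2 -2.60 ± 0.37, adjusted p = 0.000958). Groups were fully apart in all 3. Mup21, which lies at the edge of the cluster, fell less, from 491, 552, 484 and 471 CPM to 99.6, 183, 132 and 258 CPM (log2 -1.57 ± 0.23, adjusted p = 0.000819). Mup20, the pheromone darcin, averaged 7698 ± 986 CPM against 1678 ± 312 CPM. The number of Mup genes called lower was between 7 and 10 when 1 liver was left out, with 7 without TDP-43Q331K replicate 3 or replicate 2 of the combined genotype, and 9 without the high acute phase livers.

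Mup genes share most of their sequence, so counts may be split among copies. Of all 50-base stretches of their transcripts, 77.8% in Mup11, 84.0% in Mup14, 86.7% in Mup7 and 100% in Mup15 also occur in another gene, against 19.3% in Mup21. Mup15 had 99.3, 104, 104 and 96.9 CPM in TDP-43Q331K and 19.5, 4.79, 1.82 and 14.3 CPM in the combined genotype; its adjusted p of 0.0434 did not hold in any fit with 1 of the 8 livers left out (up to 0.134 over the alternatives). The likeness extends to the promoters, shown here because the genes fell together. The stretches of 80 bases are from RefSeq (GRCm38.p6), read on the gene's strand from within the 250 bases before the annotated start, and capitals mark bases not matched to Mup11.
Mup11, chr4:60662396-60662475, minus strand: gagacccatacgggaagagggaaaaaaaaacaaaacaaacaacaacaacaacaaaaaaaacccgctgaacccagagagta
Mup15, chr4:61439728-61439807, minus strand: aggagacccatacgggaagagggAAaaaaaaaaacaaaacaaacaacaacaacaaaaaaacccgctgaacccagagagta
The 250-base windows were aligned locally, and gaps and unaligned ends are left out of the counts. Of the aligned bases, 224 of 225 were identical between Mup15 and Mup11 (99.6%), 211 of 219 between Mup14 and Mup11 (96.3%) and 155 of 183 between Mup21 and Mup11 (84.7%). Bases that only Mup11 has are not marked by the capitals.

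Female-biased liver genes rose. Of 29 listed genes that female liver expresses more strongly, 21 passed the filter, 13 were called higher and 0 lower, and the median log2 fold change of the 21 was 2.41; the other 8 were too low to test. The filter used all 16 livers. A gene that is off in TDP-43Q331K could pass it only through livers of other genotypes, the combined genotype among them, so this count and median say little about the list as a whole. The number called higher was 11 without the high acute phase livers, the calls of Abcd2 and Cyp2c40 being lost. Cyp2b9, a cytochrome P450 of female liver (chromosome 7, 26173411 to 26210661, plus strand), had 2.01, 0.730, 5.01 and 2.25 CPM in TDP-43Q331K and 80.1, 153, 90.8 and 148 CPM in the combined genotype, a 47.4-fold difference (log2 5.57 ± 0.75, adjusted p = 0.00109). Its close relative Cyp2b13 had 2, 5, 4 and 6 counts in TDP-43Q331K and 317, 323, 80 and 465 counts in the combined genotype, or 0.0697 ± 0.0259 CPM against 4.76 ± 2.77 CPM (adjusted p = 0.000792). The third member tested, Cyp2b10, the textbook target of the xenobiotic receptor CAR, had 1.22, 0.830, 2.55 and 1.25 CPM against 3.38, 1.48, 3.90 and 6.92 CPM, with overlapping groups, and was not called (log2 1.42 ± 0.61, adjusted p = 0.204).

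The 3 Cyp2b promoters are shown because 2 of these genes rose and the third did not pass the test. Capitals mark bases not matched to Cyp2b9 (RefSeq, GRCm38.p6, plus strand).
Cyp2b9, chr7:26173329-26173408: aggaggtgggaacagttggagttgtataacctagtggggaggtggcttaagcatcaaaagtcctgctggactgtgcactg
Cyp2b13, chr7:26061415-26061494: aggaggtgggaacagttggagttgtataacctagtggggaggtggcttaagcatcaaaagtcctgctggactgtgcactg
Cyp2b10, chr7:25897574-25897653: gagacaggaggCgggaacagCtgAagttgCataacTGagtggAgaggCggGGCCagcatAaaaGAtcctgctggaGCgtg
Cyp2b13 matched Cyp2b9 at 248 of 250 bases (99.2%), and its stretch above has the same letters. Cyp2b10 matched at 177 of 236 aligned bases (75%). The transcripts are more distinct: 11.2% of the 50-base stretches of Cyp2b9 and 27.3% of those of Cyp2b13 occur in another gene.

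Cyp2a4, a testosterone hydroxylase of female liver, had 0.632, 0.398, 0.291 and 0.0754 CPM in TDP-43Q331K and 7.69, 39.0, 15.5 and 7.18 CPM in the combined genotype (log2 5.63 ± 0.85, adjusted p = 0.00256; 38.0% of its 50-base stretches are shared, chiefly with Cyp2a5). Hao2, a peroxisomal hydroxyacid oxidase, had 0.357, 0.415, 0.0728 and 0.121 CPM against 4.12, 8.28, 9.58 and 5.16 CPM (log2 4.80 ± 0.65, adjusted p = 0.000792). Cyp17a1, the steroid 17-alpha-hydroxylase, had 16.6, 12.1, 9.39 and 7.67 CPM against 62.6, 46.8, 46.0 and 87.3 CPM (log2 2.41 ± 0.43, adjusted p = 0.00794). All 4 livers of the combined genotype were above all 4 TDP-43Q331K livers in each of these genes. A1bg, a secreted plasma glycoprotein, was lifted in all 4 livers but very unequally, to 17.5 CPM in replicate 1 and 0.949, 1.09 and 0.483 CPM in replicates 2 to 4, from at most 0.109 CPM in TDP-43Q331K (adjusted p = 0.0106). Sult3a1, an amine sulfotransferase, had 1, 1, 0 and 3 counts in TDP-43Q331K and 187, 44, 45 and 8 counts in the combined genotype (adjusted p = 0.00891).

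Cyp4a14, a fatty acid omega-hydroxylase that is higher in females and is also a target of the fatty acid receptor PPAR-alpha, had 11.9, 12.7, 1.17 and 1.51 CPM in TDP-43Q331K and 387, 212, 516 and 265 CPM in the combined genotype (log2 5.66 ± 0.99, adjusted p = 0.00794). Of 6 Cyp4a genes tested it was the 1 that rose, while Cyp4a12b was the 1 that fell. In the Cyp2c family 3 of 13 tested genes rose and 0 fell; without the high acute phase livers 2 rose and 1, Cyp2c70, fell. Among them Cyp2c38 had 25.3, 25.4, 11.9 and 16.8 CPM against 80.2, 80.3, 89.5 and 78.7 CPM (log2 2.05 ± 0.30, adjusted p = 0.00116). Cyp2c39, also on the female-biased list, averaged 0.877 ± 0.250 CPM against 3.27 ± 0.608 CPM (log2 1.89 ± 0.36, adjusted p = 0.00794). None of 4 tested Cyp3a genes was called. Of 23 tested genes known as targets of CAR and of its relative PXR, 0 rose and 1 fell, the carboxylesterase Ces2a, from 243 ± 6.25 CPM to 134 ± 23.9 CPM (log2 -0.86 ± 0.15, adjusted p = 0.00362); Slco1a4 was also called, higher, without the high acute phase livers.

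**Figure D2:**
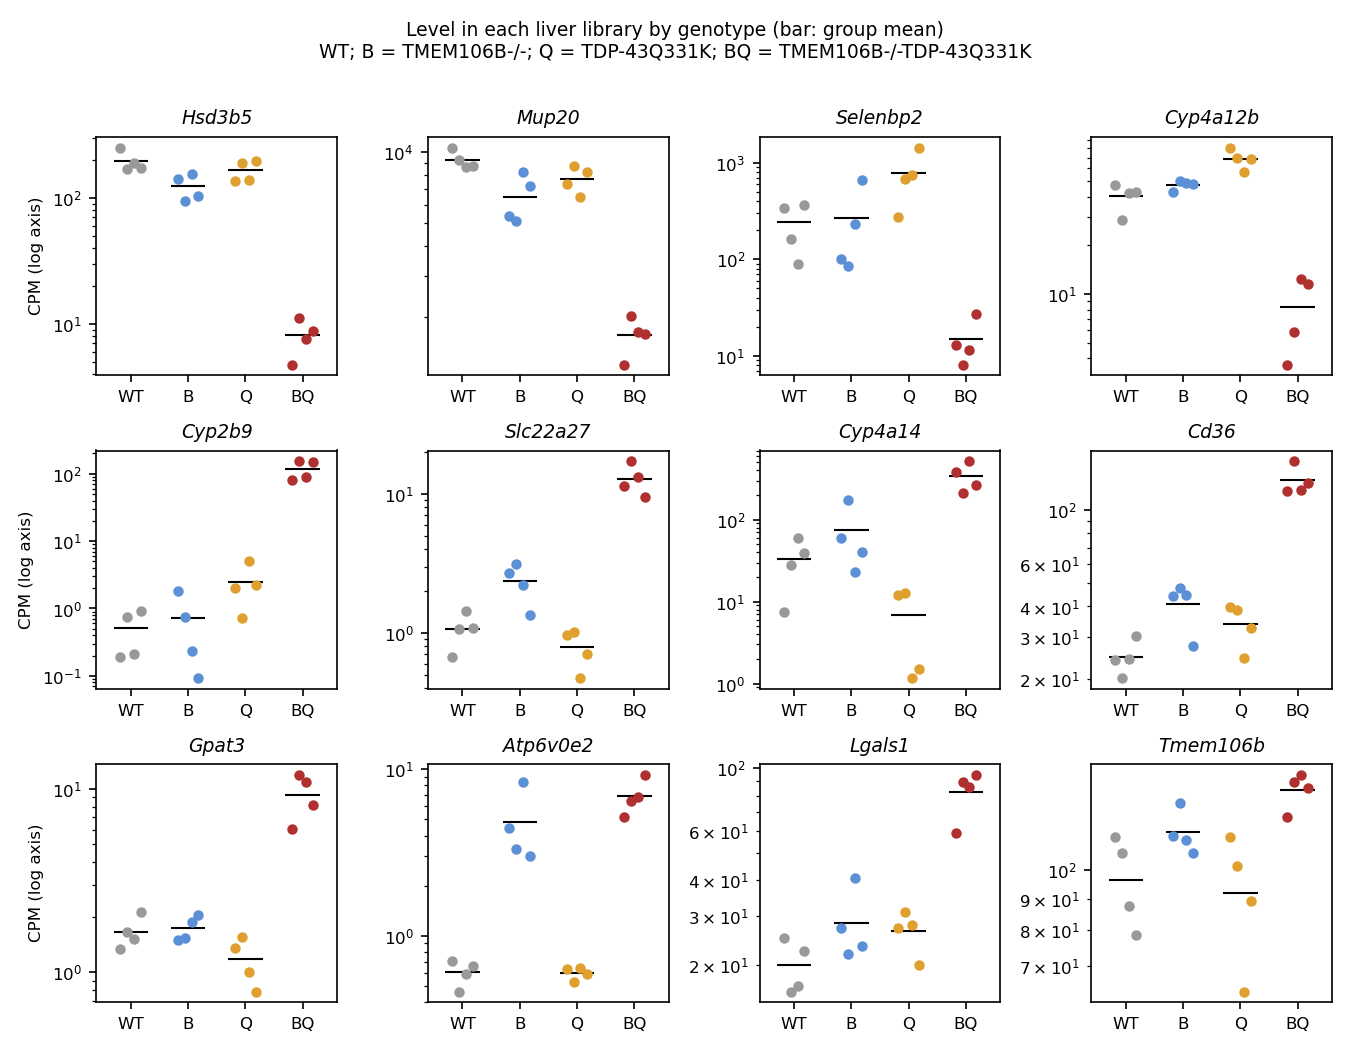
CPM on log axes in each of the 16 liver libraries for 12 genes, by genotype (grey WT, blue TMEM106B-/-, orange TDP-43Q331K, red combined genotype); points are libraries and bars are group means of 4. In the 4 panels of the top row the combined genotype lies below all other livers, in the panels from Cyp2b9 to Gpat3 and for Lgals1 it lies above them, and for Atp6v0e2 both genotypes labelled TMEM106B-/- lie high.

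The organic anion carriers of the Slc22a cluster on chromosome 19 moved in opposite directions. Of 22 tested Slc22 and Slco genes 3 rose and 2 fell (4 and 2 without the high acute phase livers, Slco1a4 being added). Slc22a27 had 0.973, 1.01, 0.473 and 0.708 CPM in TDP-43Q331K and 11.3, 17.1, 13.2 and 9.49 CPM in the combined genotype (log2 4.01 ± 0.31, adjusted p = 1.71e-06). Slc22a29 had 0.486, 0.564, 0.510 and 0.528 CPM against 3.69, 6.05, 5.76 and 4.95 CPM (log2 3.29 ± 0.32, adjusted p = 1.26e-05). The neighbour Slc22a28 went the other way, from 20.7, 20.9, 23.4 and 21.9 CPM to 8.59, 8.51, 9.70 and 10.8 CPM (log2 -1.21 ± 0.16, adjusted p = 0.000334). The groups of all 3 genes were fully apart. The female-biased Slc22a26 had 0.713, 0.929, 0.564 and 0.648 CPM against 13.4, 2.79, 4.63 and 2.19 CPM (log2 3.01 ± 0.62, adjusted p = 0.0148); the call was lost without TDP-43Q331K replicates 3 or 4 (adjusted p up to 0.0568).

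The promoters of Slc22a29, which rose, and Slc22a28, which fell, are alike over much of their length. Capitals mark bases not matched to Slc22a29 (RefSeq, GRCm38.p6, minus strand).
Slc22a29, chr19:8218901-8218980: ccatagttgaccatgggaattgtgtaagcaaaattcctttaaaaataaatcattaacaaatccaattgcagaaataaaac
Slc22a28, chr19:8132001-8132080: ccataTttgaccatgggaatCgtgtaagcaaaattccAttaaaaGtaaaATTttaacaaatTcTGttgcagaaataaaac
They matched at 146 of 168 aligned bases (86.9%). Shared 50-base stretches made up 28.7% of the Slc22a29, 29.9% of the Slc22a27 and 53.9% of the Slc22a28 transcript, among these genes and with their relatives Slc22a30 and Slc22a19, so part of their reads may be assigned to the wrong copy.

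The site TTCNNNGAA, the core letters of the site bound by STAT5, was searched in the 250 bases before each annotated start; it reads the same on both strands. It occurred in 7.02% of 32851 windows of all genes and 6.07% of windows of the genes tested. The share was 25 of 365 windows (6.85%) for genes called higher and 15 of 246 (6.1%) for genes called lower. Among the male-biased genes 4 of 21 windows (19.0%) held it, those of Bcl6, C8a and Moxd1. Among the female-biased genes 3 of 21 (14.3%) did, those of A1bg, Slc22a26 and Sult3a1. The printed stretches of the Mup, Cyp2b and Slc22a promoters do not contain these letters.

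Of 20 tested genes of growth hormone and insulin signalling 2 rose and 1 fell, and the median log2 fold change was -0.03. In the fit without the high acute phase livers 2 rose and 1 fell too, but the gene called lower was Egfr and no longer Igfbp2. Ghr, the receptor, averaged 428 ± 36.7 CPM in TDP-43Q331K and 373 ± 16.3 CPM in the combined genotype (log2 -0.20 ± 0.14, adjusted p = 0.434). Stat5b averaged 37.1 ± 3.36 CPM against 40.7 ± 4.23 CPM (log2 0.13 ± 0.11, adjusted p = 0.552). Igf1, the main secreted product of the axis, averaged 466 ± 62.6 CPM against 458 ± 119 CPM (log2 -0.02 ± 0.18, adjusted p = 0.961). Neither Ghr, Stat5b nor Igf1 was separable between the groups, which overlapped in all 3.

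More pulse-sensitive members were widely spread. Socs2, the feedback inhibitor of the receptor, had 14.4, 18.002, 14.1 and 26.4 CPM against 19.0, 8.92, 4.16 and 9.53 CPM (log2 -0.81 ± 0.63, adjusted p = 0.509). Bcl6, a repressor that is higher in male liver, had 48.6, 26.3, 96.2 and 20.97 CPM against 35.7, 15.1, 73.8 and 36.5 CPM (log2 -0.25 ± 0.55, adjusted p = 0.844). Both differed more between livers of 1 genotype than between the genotypes. Egfr, the epidermal growth factor receptor, had 415, 388, 272 and 547 CPM against 338, 111, 109.6 and 157 CPM and was not called (adjusted p = 0.107); it was called without replicate 1 of the combined genotype. Prlr, the prolactin receptor, rose from 36.7, 40.8, 30.8 and 33.6 CPM to 162, 93.4, 98.2 and 70.6 CPM (log2 1.58 ± 0.37, adjusted p = 0.0272). The serum carrier Igfbp3 rose from 6.86 ± 1.33 CPM to 12.6 ± 2.54 CPM (log2 0.87 ± 0.17, adjusted p = 0.00788), and the carrier Igfbp2 fell from 592 ± 66.4 CPM to 337 ± 87.9 CPM (log2 -0.81 ± 0.22, adjusted p = 0.0457). The Prlr call held only in the fit without replicate 4 of the combined genotype among the 8 that left 1 liver out, and the Igfbp2 call only in the fit without its replicate 3, with adjusted p up to 0.09 and 0.143 over the alternatives. Of 24 listed transcription factors of hepatocytes 1, Pparg, was called higher and 0 lower, near the 2.17% higher and 1.77% lower over all genes. Without the high acute phase livers 0 rose and 1, Foxa3, fell. The log2 fold change was positive in 5 of the 24, with a median of -0.19. Hnf4a averaged 554 ± 149 CPM against 437 ± 61.5 CPM (log2 -0.34 ± 0.19, adjusted p = 0.313). Cebpa, which drives hepatocyte metabolic genes, averaged 549.6 ± 52.6 CPM against 532 ± 52.6 CPM (log2 -0.05 ± 0.14, adjusted p = 0.886). Rxra, the shared partner of the lipid receptors, averaged 315 ± 59.5 CPM against 265 ± 48.1 CPM, and Nr1i3, which encodes CAR, 649.9 ± 167 CPM against 441 ± 175 CPM (adjusted p = 0.454 and 0.492), with overlapping groups in all 4 genes.

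Enzymes that conjugate drugs and hormones changed in both directions. Sult1e1, the estrogen sulfotransferase, had 1.67, 16.2, 54.4 and 21.2 CPM in TDP-43Q331K and 0.279, 0.241, 0.702 and 0.518 CPM in the combined genotype (log2 -5.74 ± 0.86, adjusted p = 0.00235). Its level varied widely among the TDP-43Q331K livers, and WT livers were also low, at 0.190 ± 0.117 CPM. Of 21 tested glutathione transferases 4 rose and 1, Gstp1, fell. Gstk1, the mitochondrial and peroxisomal kappa form (chromosome 6, 42245935 to 42250447, plus strand), had 88.7, 88.8, 88.6 and 85.0 CPM against 219.7, 189, 225 and 243 CPM (log2 1.32 ± 0.12, adjusted p = 8.75e-06). Gsta1, an alpha form that responds to the antioxidant factor NRF2, had 0.794, 0.763, 1.44 and 0.648 CPM against 2.15, 4.85, 10.3 and 3.38 CPM (log2 2.51 ± 0.50, adjusted p = 0.0106; 90.5% of its 50-base stretches are shared with relatives). Gstm4 averaged 41.6 ± 6.17 CPM against 82.3 ± 15.2 CPM (log2 0.99 ± 0.17, adjusted p = 0.00302). Mgst3, a membrane-bound glutathione transferase and peroxidase, rose from 12.3, 15.2, 10.9 and 11.2 CPM to 31.7, 45.5, 45.6 and 35.4 CPM (log2 1.67 ± 0.20, adjusted p = 0.000118).

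Genes of hepatic fat uptake and storage rose. In fatty liver, PPAR-gamma switches on a set of genes otherwise typical of fat cells, and of 10 such genes tested 6 were called higher and 0 lower, with a median log2 fold change of 1.53. Cd36, a fatty acid translocase, averaged 33.9 ± 7.05 CPM against 132 ± 18.1 CPM. Vldlr, a receptor for triglyceride-rich lipoproteins (chromosome 19, 27216484 to 27254231, plus strand), had 0.778, 0.697, 0.419 and 0.392 CPM in TDP-43Q331K and 4.94, 6.69, 4.43 and 3.73 CPM in the combined genotype (log2 3.11 ± 0.44, adjusted p = 0.000813). Mogat1, a monoacylglycerol acyltransferase, had 2.92, 2.70, 2.51 and 1.70 CPM against 6.68, 10.2, 8.80 and 11.9 CPM (log2 1.94 ± 0.32, adjusted p = 0.00287). Fabp4, a fatty acid carrier of fat cells and macrophages, had 5.59, 4.75, 4.84 and 4.33 CPM against 8.90, 10.6, 11.7 and 9.13 CPM (log2 1.05 ± 0.18, adjusted p = 0.00326). In these 3 genes all livers of the combined genotype exceeded all TDP-43Q331K livers. Pparg itself had 9.06, 10.8, 5.50 and 10.6 CPM against 16.6, 18.6, 12.1 and 15.02 CPM (log2 0.80 ± 0.21, adjusted p = 0.0405).

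Cidec, which fuses lipid droplets, had 6.45, 9.46, 2.86 and 2.65 CPM against 9.38, 42.5, 27.1 and 49.9 CPM; replicate 1 of the combined genotype lay within the TDP-43Q331K range (log2 2.59 ± 0.56, adjusted p = 0.0208). The calls of Pparg and Cidec were both lost without TDP-43Q331K replicates 3 or 4 or replicate 2 of the combined genotype, with adjusted p up to 0.134 and 0.0684 over the alternatives, and that of Pparg also without TDP-43Q331K replicate 1, without replicates 1 or 4 of the combined genotype, and without the high acute phase livers. Leaving out TDP-43Q331K replicate 3 or 4 left 4 of the 10 genes called, and leaving out the high acute phase livers left 5. Of the transcripts that define fat cells some were near 0 and others higher in the combined genotype. Adipoq was at most 0.0603 CPM in TDP-43Q331K and 0.0155 to 0.515 CPM in the combined genotype, Plin1 at most 0.106 and 0.452 CPM, and Lep at most 0.0301 and 0.0936 CPM. Retn was at most 0.0648 CPM in TDP-43Q331K and 0.196 to 0.25 CPM in the combined genotype, and Cfd at 0.583 to 3.32 and 2.34 to 5.8 CPM. Cidea, a lipid droplet protein of fat cells that fatty liver also expresses, was at 0.497 to 4.6 CPM and 10.6 to 27.9 CPM, without overlap, but was not called (log2 3.11 ± 0.90, adjusted p = 0.0717). The part of fat cells in these results was not tested. In whole liver, a change in the number of cells of a type and a change in RNA per cell cannot be told apart.

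The glycerolipid enzyme Gpat3, which starts triglyceride synthesis, averaged 1.18 ± 0.349 CPM against 9.27 ± 2.66 CPM and was, with Mogat1, 1 of 2 called among 16 genes of glycerolipid synthesis. Of 21 genes of fatty acid synthesis 2 rose and 0 fell. Elovl5, which lengthens polyunsaturated fatty acids, had 426, 347, 221 and 188 CPM in TDP-43Q331K and 668, 1234, 871 and 705 CPM in the combined genotype (log2 1.56 ± 0.25, adjusted p = 0.00201). Me1, the malic enzyme that supplies NADPH, had 287, 248, 174 and 195 CPM against 321, 730.5, 685 and 435 CPM (log2 1.26 ± 0.24, adjusted p = 0.009). Both sets of livers were separate, by a narrow margin in Me1, where replicate 1 of the combined genotype was lowest. The count rose to 5 without replicate 4 of the combined genotype and to 4 without the high acute phase livers. Between TMEM106B-/- and WT livers, compared below, 7 of the 21 genes were called higher and 0 lower. The median log2 fold change of the list was 0.88 there and 0.47 here.

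All 25 tested genes of cholesterol synthesis had a positive log2 fold change (median 0.44), and 6 were called. Hmgcs1, which makes HMG-CoA, had 232, 209, 143 and 153 CPM against 847, 733, 514 and 207 CPM (log2 1.64 ± 0.35, adjusted p = 0.0164). Mvd, the mevalonate decarboxylase, had 23.8, 32.2, 17.8 and 23.1 CPM against 83.8, 98.7, 72.6 and 32.2 CPM (log2 1.57 ± 0.33, adjusted p = 0.0156). Acat2, which condenses acetyl-CoA, had 76.3, 78.4, 45.9 and 60.6 CPM against 112, 149, 123 and 79.2 CPM (log2 0.83 ± 0.19, adjusted p = 0.0213). In all 3 genes replicate 4 of the combined genotype was by far the lowest of its group and lay at or near the TDP-43Q331K range. The calls were fragile: 0 of the 25 genes were called without TDP-43Q331K replicate 3 or 4 or without replicate 2 of the combined genotype, 2 without its replicate 3, 3 without its replicate 1 and 9 without its replicate 4, and 3 without the high acute phase livers. Between TMEM106B-/- and WT livers 6 of the 25 were also called higher and 0 lower, with a median log2 fold change of 0.75.

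Of 30 genes of fatty acid oxidation and ketogenesis 4 rose and 0 fell (median log2 0.27). Crat, the carnitine acetyltransferase, had 46.7, 47.6, 25.9 and 27.3 CPM against 63.9, 81.4, 98.8 and 82.1 CPM (log2 1.15 ± 0.20, adjusted p = 0.00384). Vnn1, the pantetheinase that recycles the vitamin part of coenzyme A, had 34.4, 32.2, 14.3 and 21.4 CPM against 55.5, 90.6, 67.0 and 81.3 CPM (log2 1.53 ± 0.27, adjusted p = 0.00589). Pdk4, the kinase that turns off pyruvate oxidation, had 2.38, 3.07, 2.20 and 1.43 CPM against 5.24, 11.6, 7.75 and 3.31 CPM (log2 1.62 ± 0.31, adjusted p = 0.00852). The groups were separate in all 3. Without the high acute phase livers 7 of the 30 were called. Glycolysis and gluconeogenesis held no call among 26 tested genes.

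Lipoprotein genes split. Of 28 tested 3 rose and 3 fell; Lrp1, a receptor of lipoprotein remnants, was also called lower without the high acute phase livers. Apoa4, an apolipoprotein that rises with hepatic fat and fasting, had 954, 1126, 913 and 667 CPM in TDP-43Q331K and 1576, 6846, 2420.0 and 4096 CPM in the combined genotype (log2 2.03 ± 0.40, adjusted p = 0.0116). Tm6sf2, which loads fat onto very low density lipoprotein, averaged 24.8 ± 2.17 CPM against 41.0 ± 4.49 CPM (log2 0.73 ± 0.14, adjusted p = 0.0102). Apoa1, the main protein of high density lipoprotein and a close neighbour of Apoa4 on chromosome 9, fell slightly and evenly, from 16085, 16979.5, 17109 and 17130.0 CPM to 11798, 11819.7, 12445 and 12310.1 CPM (log2 -0.48 ± 0.11, adjusted p = 0.0214). Sort1, the sorting receptor sortilin, which binds progranulin and lipoproteins, fell from 7.12, 9.94, 7.54 and 9.71 CPM to 2.54, 3.68, 5.55 and 3.003 CPM (log2 -1.21 ± 0.27, adjusted p = 0.019). Plin3, a lipid droplet coat protein, rose from 50.05 ± 8.34 CPM to 79.2 ± 13.5 CPM (log2 0.66 ± 0.15, adjusted p = 0.0172). The calls of Apoa1, Sort1 and Plin3 were each lost without TDP-43Q331K replicates 2 or 4 or replicate 2 of the combined genotype, those of Apoa1 and Sort1 also without its replicate 1, and that of Apoa1 also without its replicate 3, with adjusted p up to 0.0678, 0.063 and 0.0712 over the alternatives.

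Genes of the lysosome, where TMEM106B resides, were examined next. Of 54 tested hydrolases and membrane proteins 4 were called higher and 0 lower, against 2.17% higher and 1.77% lower over all genes. The log2 fold change was positive in 39 of the 54, with a median of 0.13. Without the high acute phase livers 4 were called higher and 1 lower, the protease Ctsa. Cd63, a tetraspanin of late endosomes, had 5.51, 6.14, 3.82 and 5.05 CPM against 10.9, 18.7, 9.34 and 7.27 CPM (log2 1.17 ± 0.24, adjusted p = 0.0129). Hexa, which degrades gangliosides, had 41.5, 39.6, 27.8 and 36.8 CPM against 49.1, 58.3, 51.4 and 56.4 CPM (log2 0.56 ± 0.13, adjusted p = 0.0226). The proteases Ctsd (log2 0.45 ± 0.11, adjusted p = 0.031) and Ctsb (log2 0.41 ± 0.11, adjusted p = 0.042) averaged 124 ± 13.3 against 169 ± 11.2 CPM and 441 ± 45.2 against 584 ± 25.2 CPM. WT livers had 6.70 to 9.53 CPM of Cd63, above every TDP-43Q331K liver, and overlapped TDP-43Q331K in Hexa, Ctsd and Ctsb. Exons of Ctsb and Fdft1 overlap on opposite strands, so without strand in the counting their reads cannot be told apart. Cd63 was called in every alternative and Ctsb in none of the 8 fits that left 1 liver out, and 1 of the 4 calls was left without TDP-43Q331K replicate 3 or 4 or replicate 2 of the combined genotype, and 2 without its replicate 1 or 3. Lamp1, Psap and Grn were not called, at 426 ± 90.1 against 530.4 ± 25.9 CPM (adjusted p = 0.235), 283 ± 63.8 against 386 ± 27.5 CPM (adjusted p = 0.1) and 181 ± 2.51 against 219 ± 38.3 CPM (adjusted p = 0.313). Grn encodes progranulin, whose loss also causes frontotemporal dementia.

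Of 20 tested V-ATPase subunits 1 was called, Atp6v0e2, an alternative e subunit of the membrane sector (chromosome 6, 48537615 to 48541801, plus strand), at 0.597 ± 0.0493 CPM against 6.92 ± 1.72 CPM. The abundant subunits Atp6v1e1 (108 ± 7.13 against 114 ± 6.25 CPM, adjusted p = 0.688) and Atp6v0c (83.1 ± 6.59 against 90.5 ± 5.40 CPM, adjusted p = 0.524) were not. Among 31 autophagy genes 1 rose and 1 fell, against 2.17% higher and 1.77% lower over all genes. Map1lc3a, which encodes a protein of the autophagosome membrane, rose from 34.4, 32.7, 26.3 and 34.5 CPM to 46.7, 46.9, 46.0 and 53.1 CPM (log2 0.59 ± 0.11, adjusted p = 0.00788). Atg2a, a lipid transfer protein of the growing autophagosome, fell from 49.8 ± 4.99 CPM to 37.2 ± 5.42 CPM, with overlapping groups (log2 -0.42 ± 0.11, adjusted p = 0.0492). Among the fits that left 1 liver out, that call held only without TDP-43Q331K replicate 2 or replicate 4 of the combined genotype (adjusted p up to 0.16 over the alternatives). WT livers averaged 47.3 ± 3.84 CPM for Map1lc3a and 35.7 ± 3.18 CPM for Atg2a, nearer the combined genotype than TDP-43Q331K in both.

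Of 21 tested targets of ATF4, the factor of the integrated stress response, 4 rose and 0 fell (median log2 0.47). Atf5, itself a stress-induced transcription factor, had 347, 231, 241 and 172 CPM in TDP-43Q331K and 718, 647, 596 and 444 CPM in the combined genotype (log2 1.28 ± 0.23, adjusted p = 0.00467). Nupr1, a stress-induced nuclear protein, had 0.794, 1.31, 1.17 and 1.07 CPM against 2.46, 7.14, 2.70 and 1.64 CPM (log2 1.68 ± 0.36, adjusted p = 0.0139). The groups did not overlap in either gene. The secreted hormones Gdf15 and Fgf21, which signal hepatic stress and fasting to other organs, rose from 5.50, 4.38, 6.06 and 4.42 to 18.01, 53.8, 29.5 and 7.63 CPM (log2 2.42 ± 0.51, adjusted p = 0.018) and from 3.13, 4.99, 0.983 and 1.33 to 8.48, 36.8, 13.4 and 9.06 CPM (log2 2.70 ± 0.58, adjusted p = 0.0187). In Atf5, Gdf15 and Nupr1 replicate 4 of the combined genotype was the lowest of its group. Without TDP-43Q331K replicate 4 or replicate 2 of the combined genotype 2 of the 4 were called, Atf5 and Nupr1; the call of Gdf15 was also lost without TDP-43Q331K replicate 2 and that of Fgf21 without replicate 3 (adjusted p up to 0.0632 and 0.0776). No call fell among 20 tested genes of folding in the endoplasmic reticulum or among 17 HSF1 chaperones.

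Of 13 tested NRF2 targets, which defend against oxidants, 3 rose and 0 fell (median log2 0.69). Hmox1, the heme oxygenase, had 6.95, 6.49, 6.92 and 6.83 CPM against 16.3, 18.5, 12.9 and 10.6 CPM (log2 1.10 ± 0.21, adjusted p = 0.00784). Nqo1, a quinone reductase, had 3.03, 4.05, 2.26 and 3.59 CPM against 6.59, 8.93, 8.08 and 5.80 CPM (log2 1.18 ± 0.30, adjusted p = 0.0356), and Gsta1 was the third. In both Hmox1 and Nqo1 the combined genotype lay wholly above TDP-43Q331K. WT livers had 8.55 to 13.5 CPM of Hmox1, above every TDP-43Q331K liver and overlapping the combined genotype. In Nqo1 (3.20 to 5.55 CPM) and Gsta1 (0.311 to 1.59 CPM) WT livers overlapped TDP-43Q331K. The count was 2 without TDP-43Q331K replicates 1, 3 or 4 or without replicates 1, 2 or 3 of the combined genotype, since the call of Nqo1 was lost there (adjusted p up to 0.109), and it was 4 without the high acute phase livers, with Srxn1 added.

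Galectins, annexins, S100 proteins and tetraspanins, which are low in resting hepatocytes and high in stromal, bile duct and immune cells, held 9 genes called higher and 0 called lower of 45 tested (median log2 0.29). Lgals1 (galectin 1, chromosome 15, 78926725 to 78930465, plus strand) had 27.1, 30.8, 27.7 and 20.1 CPM in TDP-43Q331K and 58.9, 89.5, 86.1 and 94.8 CPM in the combined genotype (log2 1.64 ± 0.21, adjusted p = 0.000328). S100a11, a calcium-binding partner of annexins, had 3.42, 4.02, 3.22 and 2.98 CPM against 7.35, 10.2, 8.25 and 10.0 CPM (log2 1.39 ± 0.18, adjusted p = 0.000317). The tetraspanin Cd9 had 12.2, 11.9, 9.47 and 9.01 CPM against 31.0, 39.4, 30.7 and 22.4 CPM (log2 1.53 ± 0.23, adjusted p = 0.00143). Groups were fully apart in all 3. S100a10, the partner of annexin A2, rose from 70.2 ± 15.9 CPM to 152 ± 4.78 CPM (log2 1.12 ± 0.17, adjusted p = 0.00144). Anxa2 itself rose from 10.7, 10.4, 12.7 and 8.74 CPM to 14.1, 44.2, 32.9 and 22.1 CPM (log2 1.41 ± 0.29, adjusted p = 0.0126), a call that was lost without TDP-43Q331K replicate 4 (adjusted p up to 0.0506 over the alternatives), and Anxa5 rose from 37.2 ± 8.60 CPM to 68.8 ± 10.1 CPM (log2 0.89 ± 0.18, adjusted p = 0.0107). Between 6 and 9 of the group were called when 1 liver was left out, with 6 without TDP-43Q331K replicate 4. Without the high acute phase livers 10 were called higher and 2 lower, the tetraspanins Tspan4 (log2 -0.90, adjusted p = 0.0326) and Tspan33 (log2 -0.75, adjusted p = 0.0395).

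Markers of the non-parenchymal cells were measured beside them. Of 19 tested stellate cell and matrix genes 5 rose and 0 fell (median log2 0.68), and their summed level was 221 to 263 CPM in TDP-43Q331K and 289 to 388 CPM in the combined genotype, without overlap. Col3a1 and Col1a2, fibrillar collagens, rose from 14.9 ± 1.67 CPM to 27.4 ± 9.52 CPM (log2 0.88 ± 0.20, adjusted p = 0.022) and from 6.84 ± 1.13 CPM to 12.7 ± 3.58 CPM (log2 0.89 ± 0.19, adjusted p = 0.0138). Rgs5, a regulator of G protein signalling found in pericytes, rose from 12.2, 12.3, 11.4 and 12.8 CPM to 26.4, 22.1, 19.6 and 18.5 CPM (log2 0.83 ± 0.14, adjusted p = 0.0031). Lrat, which defines quiescent stellate cells by making retinyl esters, was at 5.64 to 9.06 CPM and 7.55 to 9.20 CPM, with overlap. Without TDP-43Q331K replicate 4 or without replicate 2 or 3 of the combined genotype, 1 of the 19 was called, and 2 without TDP-43Q331K replicate 3.

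The 18 tested Kupffer cell and macrophage markers all had a positive log2 fold change (median 0.40) and 0 were called; their sum was 226 to 330 CPM against 298 to 446 CPM, highest in the replicate with high acute phase genes. Sums overlapped for sinusoidal endothelium (273 to 307 against 268 to 343 CPM) and for T, B and NK cells (37.0 to 68.2 against 64.3 to 90.3 CPM), and 1 gene was called in each, Pecam1 higher (lost in 7 of the fits that left 1 liver out) and Cd4 lower. Cd4 fell from 1.33, 1.68, 1.93 and 2.74 CPM to 0.450, 0.301, 0.390 and 0.518 CPM (log2 -2.21 ± 0.39, adjusted p = 0.00467), while the T cell gene Cd3e stayed within 0.232 to 0.455 CPM and 0.0518 to 0.484 CPM. Bile duct markers summed to 56.0 to 68.5 CPM against 42.9 to 53.4 CPM, lower in the combined genotype, and 0 of 8 tested were called. Neutrophil markers summed to 3.45 to 5.65 against 2.12 to 6.68 CPM, with Ly6g at 0. Red cell genes summed to 106 to 130.0 against 96.7 to 149.6 CPM. Pancreas was represented by Cela1, an elastase that fell from 26.8 ± 2.60 CPM to 13.7 ± 1.999 CPM (log2 -0.97 ± 0.20, adjusted p = 0.0131; the call was lost without replicate 2 of the combined genotype, with adjusted p up to 0.0545), while Cpb1, Prss2, Amy2b and Ins1 were at 0 in the 8 livers. The part these cell type markers have in the galectin, annexin and matrix results was not tested.

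**Figure D3:**
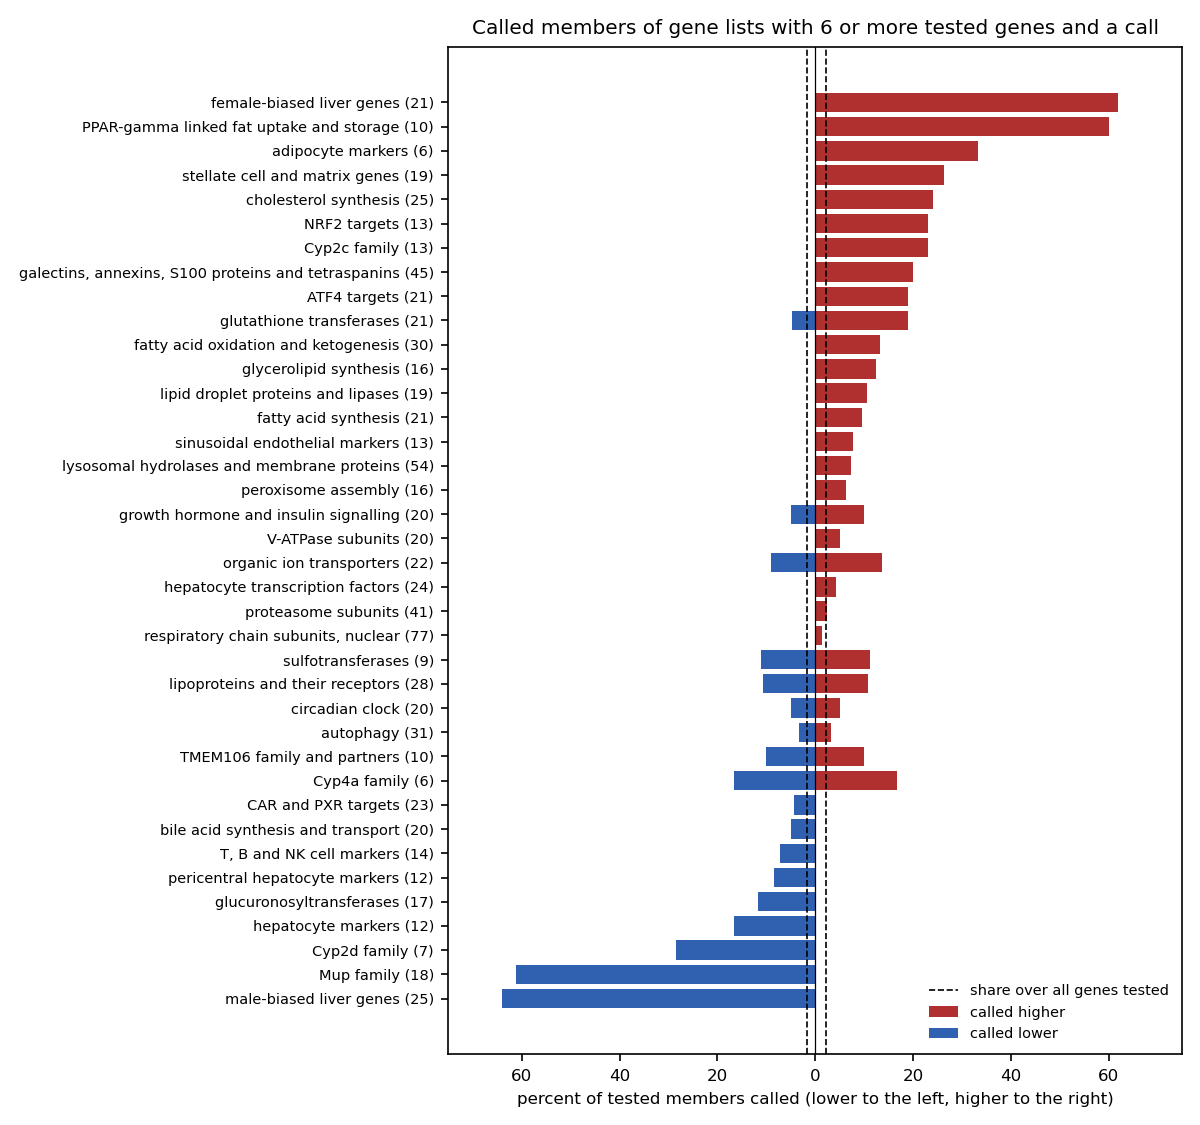
Percent of the tested members of each gene list called higher (red, to the right) or lower (blue, to the left) in the combined genotype, for lists with 6 or more tested genes and at least 1 call; the number of tested genes follows each name. Dashed lines mark the share over all genes tested (2.17% higher, 1.77% lower). On the left 16 of 25 male-biased and 11 of 18 Mup genes were called, and these lists share genes. The female-biased bar (13 of 21) leaves out 8 genes too low to test and is not to be ranked against the others.

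Genes outside these lists were among those with the smallest p. Tceal8, an X-linked gene of the transcription elongation factor A-like family, had 4.30, 4.10, 3.26 and 3.35 CPM in TDP-43Q331K and 32.4, 32.7, 13.9 and 25.4 CPM in the combined genotype (log2 2.80 ± 0.22, adjusted p = 1.71e-06). Nt5e, the ectoenzyme CD73 that forms adenosine, had 1.51, 1.66, 0.819 and 1.18 CPM against 12.7, 10.1, 9.56 and 5.52 CPM (log2 2.87 ± 0.30, adjusted p = 3.47e-05). Raet1e, a stress ligand of the NK cell receptor NKG2D, had 0.908, 0.481, 0.437 and 0.452 CPM against 10.3, 6.36, 3.10 and 3.11 CPM (log2 3.32 ± 0.36, adjusted p = 5.05e-05; 44.7% of its 50-base stretches are shared with relatives). All 3 were higher in every liver of the combined genotype. Serinc2, a multi-pass membrane protein, rose from 6.79 ± 0.464 CPM to 16.2 ± 1.51 CPM (log2 1.25 ± 0.13, adjusted p = 2.96e-05). Irf5, a transcription factor of innate immunity, fell from 11.3 ± 1.49 CPM to 4.40 ± 0.556 CPM (log2 -1.36 ± 0.13, adjusted p = 1.34e-05), and the adhesion receptor Adgrf1 fell from 5.66, 4.75, 4.22 and 6.04 CPM to 0.496, 0.226, 0.951 and 0.293 CPM (log2 -3.39 ± 0.45, adjusted p = 0.000515). Gm3839, annotated as protein-coding, shares 57.1% of its 50-base stretches, chiefly with Gapdh, and fell from 12.6 ± 3.93 CPM to 1.02 ± 0.187 CPM (log2 -3.63 ± 0.23, adjusted p = 1.12e-07).

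A pair of genes was nearly silent in all TDP-43Q331K livers and high in 3 of the 4 livers of the combined genotype. Ren1, the renin gene, had 0, 0, 1 and 0 counts in TDP-43Q331K and 2, 477, 2500 and 1413 counts in the combined genotype. Ctse, the aspartic protease cathepsin E, lies near it on chromosome 1 and had 0.178, 0.149, 0.273 and 0.0904 CPM against 0.233, 50.8, 20.9 and 19.95 CPM. In both genes the liver that stayed low was replicate 1. The adjusted p-values of 0.031 (Ren1) and 0.0213 (Ctse) rose to as much as 0.404 and 0.291 over the alternatives. In edgeR without the high acute phase livers they fell to 0.000392 and 4.78e-06. Both calls were lost without any 1 of the TDP-43Q331K livers or without replicate 2 of the combined genotype. The call of Ren1 was also lost without replicate 3 of that genotype. In TMEM106B-/- livers the 2 genes averaged 20.2 ± 18.3 CPM and 15.1 ± 10.4 CPM, and in WT livers 0.0668 ± 0.106 CPM and 0.243 ± 0.192 CPM. TMEM106B-/- replicates 1 to 4 had 11.1, 41.6, 27.9 and 0.0265 CPM of Ren1 and 23.9, 15.8, 20.3 and 0.251 CPM of Ctse. Replicate 4, low in both, had an acute phase sum of 63961 CPM. The part of the acute phase in these 2 genes was not tested.

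The TMEM106B-/- label was also compared on the normal Tardbp background, in TMEM106B-/- and WT livers that share no library with the 8 above. There edgeR called 176 of 16710 genes (1.05%), 115 higher (0.688%) and 61 lower (0.365%). In both comparisons 46 genes were called, 32 higher and 14 lower, and all 46 in the same direction; they are 6.99% of the 658 and 26.1% of the 176. AC115117.1, annotated as a processed pseudogene on chromosome 18, had 0 counts in all TDP-43Q331K livers and 36, 31, 43 and 17 counts in the combined genotype, at least 9.10-fold higher when the control is set to 3 counts per library, and it averaged 1.01 ± 0.391 CPM in TMEM106B-/- livers (adjusted p = 9.53e-05 against WT). Gstk1 rose by 1.32 ± 0.12 on the log2 scale on the Q331K background and by 1.17 ± 0.12 on the normal one (adjusted p = 9.53e-05). Atp6v0e2 rose by 3.53 ± 0.30 and 2.98 ± 0.30. Elovl5 rose by 1.56 ± 0.25 and 1.51 ± 0.25, and Me1 by 1.26 ± 0.24 and 1.31 ± 0.24 (adjusted p = 0.00646 and 0.0186 on the normal background). Values on the 2 backgrounds lay within 1 SE of each other for Elovl5 and Me1.

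Among shared decreases, Eva1a, a membrane protein of lysosome and endoplasmic reticulum, had 177, 141, 187 and 139.7 CPM in TDP-43Q331K and 78.9, 79.4, 79.6 and 81.1 CPM in the combined genotype (log2 -1.02 ± 0.15, adjusted p = 0.000927), and changed by -1.08 ± 0.15 on the normal background. Ajuba, a LIM domain protein of cell junctions, changed by -1.40 ± 0.21 and -1.54 ± 0.21, Cd207, the lectin langerin of dendritic cells, by -2.35 ± 0.37 and -2.74 ± 0.38, and Zyx, the focal adhesion protein zyxin, by -0.84 ± 0.11 and -0.58 ± 0.11. Gstp1 changed by -1.42 ± 0.17 and -1.08 ± 0.17. Ephb6, a kinase-dead ephrin receptor, rose from 0.519, 0.315, 0.291 and 0.332 CPM to 4.09, 6.99, 7.97 and 2.52 CPM (log2 3.88 ± 0.37, adjusted p = 9.72e-06) and by 2.01 ± 0.33 on the normal background. Nuggc, a nuclear GTPase, rose from 0.162, 0.116, 0.127 and 0.121 CPM to 1.18, 0.618, 0.718 and 1.07 CPM (log2 2.75 ± 0.50, adjusted p = 0.00596) and by 3.64 ± 0.49 on the normal background.

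Whether the effect differs between the backgrounds was tested by the interaction, the difference between the 2 log2 fold changes, which was called for 115 of 16710 genes (0.688%), 57 positive (0.341%) and 58 negative (0.347%). This contrast uses the same 8 livers and is no separate evidence for their changes. Hsd3b5, Selenbp2, Cyp4a12b and Cyp2b9 were among the genes called. Hsd3b5 changed by -4.35 ± 0.26 on the Q331K background and by -0.67 ± 0.23 on the normal one (interaction -3.68 ± 0.33, adjusted p = 6.88e-05). Selenbp2 changed by -5.72 ± 0.84 and 0.16 ± 0.69 (interaction -5.88 ± 1.04, adjusted p = 0.0223), Cyp4a12b by -3.05 ± 0.30 and 0.24 ± 0.28 (interaction -3.29 ± 0.40, adjusted p = 0.00193), and Cyp2b9 by 5.57 ± 0.75 and 0.38 ± 0.83 (interaction 5.19 ± 1.08, adjusted p = 0.0464). In these 4 genes the difference between libraries labelled with and without TMEM106B-/- was larger on the Q331K background. They do not stand for their lists: the interaction was called for 6 of 25 male-biased and 4 of 21 female-biased genes. On the normal background the median log2 fold changes of these lists were -0.47 and 1.63. There 1 male-biased gene was called lower and 3 female-biased genes higher. Wfdc2, a secreted protease inhibitor, had 4.04, 3.87, 4.59 and 4.08 CPM in TDP-43Q331K and 10.1, 23.9, 11.4 and 11.4 CPM in the combined genotype, a change of 1.78 ± 0.22 (adjusted p = 0.000257) beside one of -0.43 ± 0.22 on the normal background (interaction 2.20 ± 0.31, adjusted p = 0.00385). The reverse held for Gm33543, an uncharacterised gene, which changed by -0.36 ± 0.23 and 2.03 ± 0.24 (interaction -2.39 ± 0.33, adjusted p = 0.00385). Renbp, the renin-binding protein gene, changed by 0.75 ± 0.22 (adjusted p = 0.0636) on the Q331K background and by -1.20 ± 0.22 on the normal one (interaction 1.94 ± 0.31, adjusted p = 0.00824).

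Lipid genes fell on both sides of that test. Gpat3 changed by 2.98 ± 0.25 on the Q331K background and by 0.07 ± 0.24 on the normal one (interaction 2.91 ± 0.35, adjusted p = 0.00101), Cd36 by 1.96 ± 0.19 and 0.73 ± 0.18 (interaction 1.23 ± 0.25, adjusted p = 0.0327) and Crat by 1.15 ± 0.20 and -0.11 ± 0.20 (interaction 1.26 ± 0.28, adjusted p = 0.0464). The interaction was not called for Vldlr (2.17 ± 0.59, adjusted p = 0.101), Mogat1 (0.996 ± 0.45, adjusted p = 0.287), Hmgcs1 (0.59 ± 0.48, adjusted p = 0.579) or Elovl5 (0.04 ± 0.34, adjusted p = 0.966). Nor was it for Cyp4a14 (4.51 ± 1.21, adjusted p = 0.106), Serpina1e (-3.51 ± 0.78, adjusted p = 0.058) or Lgals1 (1.15 ± 0.29, adjusted p = 0.0845). In the lists of fatty acid synthesis and cholesterol synthesis 0 genes had a called interaction. A difference between backgrounds was thus not shown for any of these, nor was equal change.

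**Figure D4:**
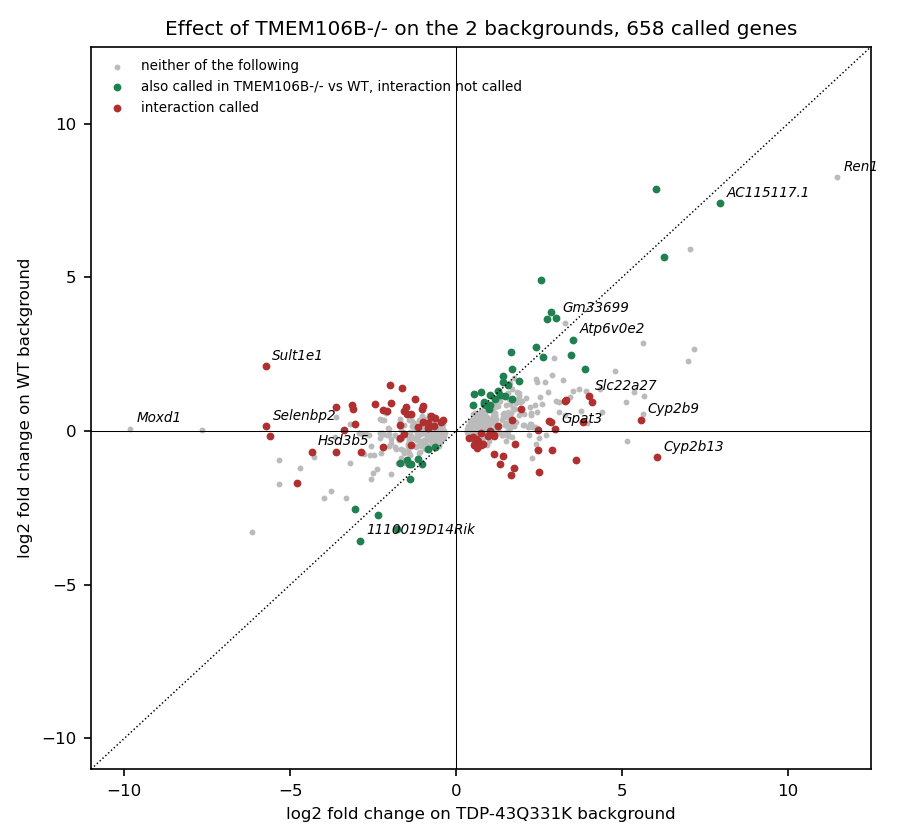
For the 658 genes called between combined genotype and TDP-43Q331K, the log2 fold change on the Q331K background (horizontal axis) is plotted against that of TMEM106B-/- over WT (vertical axis); the dotted line marks equal change. Genes called on both backgrounds without a called interaction (green), such as Atp6v0e2 and Gm33699, lie on the same side of 0 on both axes, and genes with a called interaction (red), such as Hsd3b5, Selenbp2 and Cyp2b9, lie near the horizontal axis or away from the line.

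Called genes were spread over the genome, with more on chromosome 6, which carries Tmem106b. There 60 of 906 tested genes (6.62%) were called, 34 higher and 26 lower, against 3.94% over all genes, and 12 of the 46 genes shared by both backgrounds lie on it. Other chromosomes with 20 or more tested nuclear genes ranged from 2.36% (chromosome 16) to 5.06% (chromosome 19). On the Y chromosome 5 of 11 tested genes were called, named here after their values were seen: the pseudogenes Gm38149, Gm38183 and Gm29475 and the demethylase gene Kdm5d were lower, and Gm47283 was higher. In windows of 10 Mb with at least 20 tested genes, the highest share was 13 of 60 (21.7%) on chromosome 4 from 60 to 70 Mb, 12 of them Mup genes or a Mup pseudogene, all lower. Next were chromosome 6 from 0 to 10 Mb (7 of 34, 20.6%) and from 40 to 50 Mb (12 of 60, 20%), which holds Gstk1, Atp6v0e2, Ephb6, Zyx and Tcaf1.

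Within 5 Mb of Tmem106b 27 genes were tested, 2 called higher (St7 and Tmem106b) and 3 lower. The uncharacterised gene 1110019D14Rik (chromosome 6, 13871526 to 14044385, plus strand) fell from 2.51, 1.86, 2.66 and 1.88 CPM to 0.326, 0.301, 0.218 and 0.345 CPM (log2 -2.90 ± 0.27, adjusted p = 9.72e-06) and by 3.56 ± 0.29 on the log2 scale on the normal background. D830026I12Rik had 13, 3, 9 and 9 counts in TDP-43Q331K and 0 in all 4 livers of the combined genotype (adjusted p = 0.0161), a call that needed replicate 2 of the combined genotype (adjusted p up to 0.0508 in its absence). Glcci1, a glucocorticoid-induced gene, averaged 0.420 ± 0.0558 CPM against 0.197 ± 0.0679 CPM, and St7 averaged 7.24 ± 1.40 CPM against 10.3 ± 0.567 CPM. The calls of both, at adjusted p = 0.0489 and 0.0347, were each kept in 1 of the 8 fits that left a liver out. Of the chromosome 6 genes further away, Tcaf1, a regulator of the cold channel TRPM8, rose from 2.33 ± 0.551 CPM to 7.53 ± 1.55 CPM (log2 1.69 ± 0.21, adjusted p = 0.000183). Near Tardbp, on chromosome 4, Pgd, an NADPH-forming enzyme of the pentose phosphate pathway, rose from 56.4, 56.1, 50.8 and 53.1 CPM to 81.3, 129, 114 and 78.0 CPM (log2 0.89 ± 0.16, adjusted p = 0.00447).

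**Figure D5:**
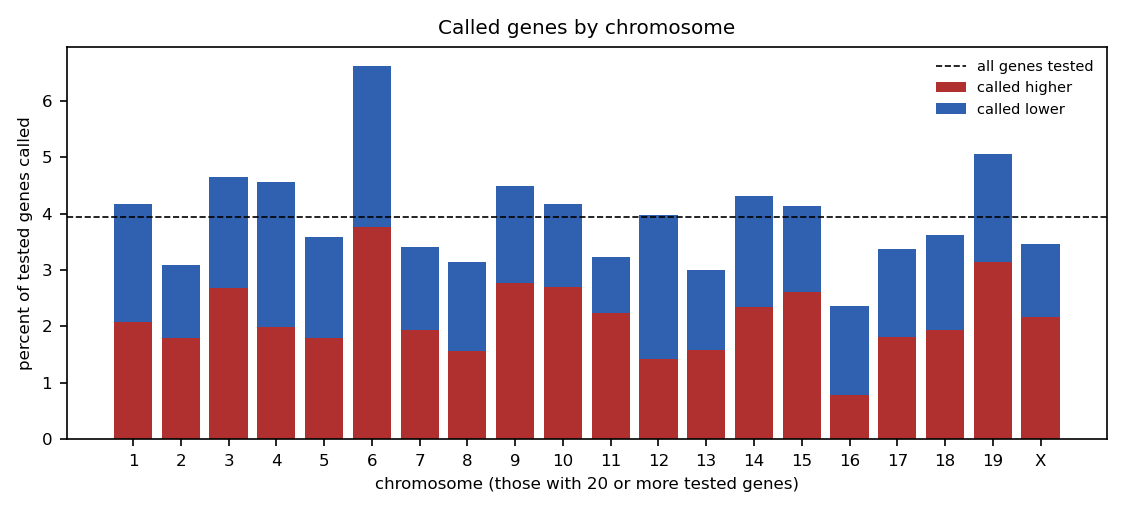
Percent of tested genes called on each chromosome with 20 or more tested genes, stacked as called higher (red) and called lower (blue) in the combined genotype. The dashed line marks 3.94%, the share over all genes; chromosome 6 is the highest at 6.62% and chromosome 16 the lowest at 2.36%.

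In cortex the same contrast, 5 libraries of the combined genotype against 6 of TDP-43Q331K, gave 298 calls among 21248 genes (1.4%), 170 higher (0.8%) and 128 lower (0.602%), in a fit of its own. Of the 658 liver genes 500 were also tested in cortex, and 12 were called in both tissues, 9 in the same direction and 3 in the opposite one, which is 2.4% of the 500 and 5.29% of the 227 cortex calls tested in liver. AC115117.1 rose in both tissues, by 7.97 ± 0.83 in liver and 4.93 in cortex on the log2 scale, values that depend on how counts of 0 are handled. Ints7, a subunit of the Integrator complex, changed by -0.89 ± 0.18 in liver and -0.55 in cortex, Abcb1b, a drug efflux pump, by -1.39 ± 0.27 and -0.39, Gcfc2, a factor of intron turnover, by -1.05 ± 0.20 and -0.32, and Clic5, an intracellular chloride channel protein, by -2.10 ± 0.30 and -0.53. Cd36, Lgals1, Gpat3 and Atp6v0e2 were tested in cortex and not called: Cd36 changed by 0.89 there (adjusted p = 0.084), Lgals1 by 0.12 (adjusted p = 0.444), Gpat3 by -0.23 (adjusted p = 0.346) and Atp6v0e2 by 0.10 (adjusted p = 0.364).

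Several groups held no call among their tested members: 28 acute phase genes, 32 interferon-stimulated genes, 82 cytosolic ribosomal protein genes, 11 mitochondrially encoded respiratory chain genes, 14 cell cycle genes, 11 periportal hepatocyte markers and 19 genes linked to amyotrophic lateral sclerosis or frontotemporal dementia. In the shorter of these lists the lack of a call says little at 3.94% called over all genes. The log2 fold change was positive in 23 of the acute phase, 17 of the interferon-stimulated and 20 of the ribosomal protein genes. Among 77 nuclear respiratory chain genes, 41 proteasome genes and 16 peroxisome assembly genes 1 each was called, higher, and 65, 36 and 10 were positive. In the circadian clock 1 of 20 genes rose and 1 fell: Per2, a period gene, went from 56.4, 85.1, 96.2 and 97.9 CPM to 26.9, 38.6, 53.3 and 51.2 CPM (log2 -0.98 ± 0.23, adjusted p = 0.0233), a call lost without TDP-43Q331K replicates 2, 3 or 4 or replicates 1 or 2 of the combined genotype (adjusted p up to 0.082). Without the high acute phase livers 1 gene each was called lower in the acute phase (Itih3), ribosomal protein (Rpl12), disease-linked (Hnrnpa1) and endoplasmic reticulum folding (Xbp1) lists, and in the clock list Per2 was called and the gene called higher, Npas2, was not. Of 57 gene lists 41 held at least 1 call and 16 held none. That count depends on the size of the lists and was not set against the number expected at 3.94% called over all genes. The counts of each list are to be read beside 2.17% higher and 1.77% lower over all genes.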

How the data were processed

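Total RNA of liver and cortex was made into libraries with a directional NEBNext kit, per the labels, and the authors deposited raw counts per gene, with 1 table per tissue and 55536 genes in each. Reads were trimmed with Trim Galore and cutadapt and inspected with FastQC, per the submitters' processing notes, which name the builds GRCm38 and mm10; no source used here gives the aligner, the counter or its strand setting. All 55536 gene identifiers matched the GENCODE M21 annotation (GRCm38), and 1 column of the cortex table that matches no sample was not used.

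Counts were tested with edgeR 4.0.16 in R 4.3.3 (TMM scaling, genes kept by filterByExpr with a minimum count of 10 and a minimum total of 15, robust quasi-likelihood test). The 16 livers, 4 of each genotype, entered 1 fit, and the cortex libraries another. Genes with a Benjamini-Hochberg adjusted p under 0.05 over all genes tested are called; adjusted p-values in the text are edgeR's unless another tool is named. CPM are counts over the TMM-scaled library size, ± is the SD over libraries for CPM and the SE for log2 fold changes, and folds come from the fitted log2 values. Depth limits the precision of low genes: the lowest CPM values rest on a few reads even at these totals.

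Alternatives were DESeq2 1.42.0, limma 3.58.1 (voom with sample weights), scaling by RLE, a fit to every gene above 0, the compared groups alone, a replicate block, each library left out and, chosen after seeing the data, the fit without the 3 livers with high acute phase genes. Genes were named by a rule: Tmem106b and Tardbp; the 15 called genes with the smallest p in each direction; the 6 with the largest fold in each direction among those averaging at least 1 CPM; up to 5 called members of each of the 57 gene lists, and up to 4 uncalled members of the lists of direct interest; the 6 interaction genes with the smallest p in each direction; up to 10 genes called in the same direction on both backgrounds and up to 10 in both tissues; called genes within 5 Mb of Tmem106b or Tardbp; and those of the 3 windows of 10 Mb with the highest share of calls. Not all genes the rule names are printed. Serpina1e, Cyp2b10, Stat5b, Socs2, Bcl6, Cyp17a1 and Anxa2 were added after their values were seen. The comparison, the lists and the rule were chosen with earlier results of these data known. Shared 50-base stretches were counted in GENCODE transcripts, and promoters (RefSeq, GRCm38.p6) were aligned with biopython 1.88. Exons of A1bg, Apoa4, Crat, Gcfc2, Gpat3, Irf5, Tardbp and Zyx, among others, overlap genes on the opposite strand, from which their reads cannot be told apart if counting ignored strand.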

Additional observations from a re-analysis of the deposited data

Results flagged for a closer look

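Of 136 genes named in the text and examined here, 30 had a called interaction (edgeR, adjusted p under 0.05). That is a change between combined genotype and TDP-43Q331K that differed from the change between TMEM106B-/- and WT. Over all genes tested 115 of 16710 (0.688%) were called. The rule names genes by interaction p and by p and fold in the same livers, so a higher share was built in. The differences between the 2 log2 fold changes were negative for Sult1e1 (-7.85), Selenbp2 (-5.88), Ugt2b38 (-5.45), Hsd3b5 (-3.68), Adgrf1 (-3.43), Cyp4a12b (-3.29), Mup11 (-3.12), Gm3839 (-2.95), Clic5 (-2.74), Gm33543 (-2.39), Mup14 (-2.19), Mup20 (-1.68), Susd4 (-1.46), Ces2a (-0.97) and Irf5 (-0.89). They were positive for Cyp2b13 (6.89), Cyp2b9 (5.19), Gpat3 (2.91), Slc22a27 (2.88), Nt5e (2.59), Tceal8 (2.47), Slc22a29 (2.32), Raet1e (2.31), Wfdc2 (2.20), Renbp (1.94), Mgst3 (1.31), Crat (1.26), Cd36 (1.23), Serinc2 (1.10) and Map1lc3a (0.86). Sult1e1 fell by 5.74 on the log2 scale on the Q331K background and rose by 2.11 on the normal one, and Clic5 changed by -2.10 and 0.65.

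One library stood far from the other 3 of its group in 16 cases out of 272 groups of named genes and the acute phase sum; chance gives about 1 in 20 groups. In TDP-43Q331K, replicate 1 was high for Raet1e (0.908 CPM, the others 0.437 to 0.481) and low for Apoa1 (16090 CPM, the others 16980 to 17130). Replicate 2 was low for Ajuba (5.62 CPM, the others 6.35 to 6.48). Replicate 3 was high for Gcfc2 (13.2 CPM, the others 7.12 to 7.54), low for Lamp1 (291.5 CPM, the others 464 to 480.5), and the only one with a Ren1 count (0.0182 CPM). Replicate 4 was low for Gstk1 (85.0 CPM, the others 88.6 to 88.8).

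In the combined genotype, replicate 1 was high for A1bg (17.5 CPM, the others 0.483 to 1.09) and for the acute phase sum (46260 CPM, the others 19860 to 19990). Replicate 2 was high for Renbp (7.03 CPM, the others 3.49 to 3.89) and Wfdc2 (23.9 CPM, the others 10.1 to 11.4) and low for Rxra (192.6 CPM, the others 287 to 290.4). Replicate 3 was high for Cyp2c38 (89.5 CPM, the others 78.7 to 80.3) and Psap (427 CPM, the others 369 to 374). Replicate 4 was high for Map1lc3a (53.1 CPM, the others 46.0 to 46.9) and Serpina1e (470.0 CPM, the others 123 to 163).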

How the results depend on the processing

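The 658 calls between combined genotype and TDP-43Q331K became 1317 with DESeq2 and 1865 with limma-voom, and 248 to 703 when 1 liver was left out. They were 656 with RLE size factors, 509 without the filter on low counts, 832 with the compared groups alone and 748 without the high acute phase livers. The labels do not say that a replicate number pairs livers. After the mean of each group was subtracted from log CPM, same-numbered libraries correlated at -0.030, 0.051, -0.207 and -0.122. The other pairs of the 2 groups correlated at -0.121 to 0.192. So few values cannot settle whether the livers are paired. With a replicate block 571 genes were called. The 176 calls of TMEM106B-/- against WT became 620 with DESeq2, 324 with limma-voom, 60 with the compared groups alone, 118 with the replicate block and 55 to 353 with 1 liver left out: 105, 78, 55 and 353 without TMEM106B-/- replicates 1 to 4, and 61 and 77 without WT replicates 2 and 3. The 115 interaction calls numbered 600 by DESeq2, 320 by limma-voom, 92 with the replicate block and 51 to 189 with 1 liver left out: 68, 76, 76 and 65 without TDP-43Q331K replicates 1 to 4, 51 without replicate 2 of the combined genotype and 189 without TMEM106B-/- replicate 4. In cortex 298 calls changed to 830 (DESeq2), 781 (limma-voom), 171 without the filter, 104 with the compared groups alone, 120 with the replicate block and 53 to 1103 with 1 library left out: 53, 94, 119 and 87 without TDP-43Q331K replicates 1, 3, 4 and 5, and 148, 122, 59 and 1103 when combined genotype replicates 1, 3, 4 and 5 were dropped in turn. The cause of these shifts was not tested.

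Of 117 called genes named in the text, 83 were called under every alternative and 34 were lost under at least 1; of 19 uncalled, 4 were called under at least 1. Direction reversed in genes that were not called. With 1 liver left out, the log2 fold change ranged from -0.72 to 0.33 in Bcl6, from -0.089 to 0.020 in Cebpa, from -0.22 to 0.082 in Igf1 and from -0.0033 to 0.085 in Tardbp. It was 0.25 for Bcl6 with limma-voom and 0.0086 for Cebpa in the fit that lacked the high acute phase livers. With 4 livers a group, 3427 genes had an unadjusted p under 0.05 and 658 an adjusted one. The labels give no diet, cage or time of death, and the part of these in the results was not tested.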
